A study of Homo sapiens with 21 samples.

Results

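Ligand-gated neurotransmitter receptors are ion channels built from several subunits, and the genes described here encode those subunits: the GABA-A receptors (GABR), the ionotropic glutamate receptors (GRIA, GRIK, GRIN and GRID), the glycine receptors (GLRA and GLRB), the nicotinic acetylcholine receptors (CHRN) and the 5-HT3 serotonin receptors (HTR3). They were taken as the protein-coding rows whose symbols begin in this way, which gave 64 of 60728 rows, and the 34 with a mean normalised value of 5 or more over all libraries are the members described. The set was selected on measured values, since it was proposed for the strong rise of GABRB1 against Control and the minimum uses the mean of all libraries, so the difference of GABRB1 from Control is given as a description with no test. Transcripts were measured by RNA-Seq in SK-N-BE(2), a neuroblastoma cell line with adrenergic features, 72 h after transduction with lentivirus made in HEK293T cells. There were 7 conditions of 3 libraries each, and every library, those of Control included, came from transduced cells of this 1 line. Control cells received a non-silencing short hairpin RNA (shRNA), and the others are labelled shARID1A.2 and shARID1A.4, shARID1B.2 and shARID1B.3, and the combinations shARID1A/B.2.3 and shARID1A/B.4.2, after the BAF chromatin remodelling subunits ARID1A and ARID1B that they are named for.

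GABA-A and glycine receptors pass chloride and are mostly inhibitory in the mature brain, whereas GABA can depolarise immature neurons. Glutamate, nicotinic and 5-HT3 receptors pass cations and excite the cell. Sympathetic neurons, the lineage that neuroblastoma arises from, receive their main synaptic input through nicotinic receptors that contain CHRNA3 and CHRNB4, and the subunit mixture of each receptor sets its conductance, kinetics and drug sensitivity.

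The targeted transcripts did not follow all labels, so conditions are named throughout as they are labelled. ARID1A ranged from 6097 to 6463 in Control, and its mean as a percentage of Control was 34% in shARID1A.2, 35.5% in shARID1A.4, 30.4% in shARID1B.2, 39.3% in shARID1B.3, 89.7% in shARID1A/B.2.3 and 86.2% in shARID1A/B.4.2. ARID1B ranged from 5791 to 5804 in Control, and its mean was 38.7%, 53.5%, 86.3%, 105%, 44.8% and 32.9% of Control in the same order. The libraries labelled shARID1A thus had both transcripts lowered, those labelled shARID1B had mainly ARID1A lowered, and those labelled shARID1A/B had mainly ARID1B lowered. Any direction given below belongs to the label and not to the loss of a named gene.

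Each value is the number of reads on a gene divided by 1 size factor per library, and differences are on the scale log2(value + 1), with standard errors and Benjamini-Hochberg adjusted p-values from limma over 18615 rows. A gene is said to have risen or fallen, or to be called, where the adjusted p was under 0.05. Libraries held 27954334 to 41077638 reads. A change was called for most rows in every comparison, so the counts of members below are read against that background. All 9 adrenergic neuroblastoma markers were above 100 in every library, but their levels differed between conditions. DBH was at 476 to 591 in Control, 107 to 123 in shARID1A.2 and 1078 to 1190 in shARID1A/B.2.3. HAND2 was at 19025 to 19481 in Control and 5778 to 6075 in shARID1A.2, and MYCN at 120355 to 124192 in Control and 410526 to 426870 in shARID1A.4. PHOX2A varied less, from 7228 in shARID1B.2 to 11075 in shARID1A.2. The summed level of 15 markers of other cell types was 697 to 729 in Control, 976 to 1054 in shARID1A.2, 445 to 512 in shARID1A.4, 495 to 532 in shARID1B.2, 604 to 642 in shARID1B.3, 359 to 379 in shARID1A/B.2.3 and 742 to 798 in shARID1A/B.4.2, with 3 to 6 of the 15 under 5 in every library of a condition. Of the defining markers KRT5 was at 0 throughout and PECAM1, MYOG and CD3E were at 0 in Control, whereas PTPRC was at 399 to 426 in Control and 57.3 to 63.2 in shARID1A/B.2.3. Their part in the results was not tested. The labels do not say whether the 3 libraries of a condition came from separate cultures, and the p-values measure only the spread between them.

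Several members lie side by side in the genome (GRCh38, GENCODE 29). GABRA4 (chromosome 4, 46918900 to 46994407, minus strand) and GABRB1 (chromosome 4, 46993723 to 47426444, plus strand) lie head to head and overlap by 685 bases at their annotated starts. GABRA5 (chromosome 15, 26866363 to 26949207, plus strand) and GABRG3 (chromosome 15, 26971282 to 27541991, plus strand) are close together. CHRNA5, CHRNA3 and CHRNB4 occupy chromosome 15 from 78565520 to 78727754, where the ends of CHRNA5 and CHRNA3 overlap by 2218 bases on opposite strands. HTR3B and HTR3A share chromosome 11 from 113904677 to 113990313, and GLRB and GRIA2 share chromosome 4 from 157076057 to 157366075. GABRA3 and GABRQ are neighbours on chromosome X, from 152166234 to 152657534. The library kit marked the strand, but whether the counting used it is not given in the sources used here, so reads in the overlaps cannot be assigned with certainty. CHRNA7 also shares near-identical sequence with the fusion gene CHRFAM7A, and its values are uncertain for that reason.

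Upstream sequence is shown for 3 members whose means lay on 1 side of Control in all 6 other conditions, GABRB1 and GRIN2D above it and GABRQ below it, as RefSeq (GRCh38.p14) gives it on the plus strand. For GRIN2D (chr19:48393418-48393667) and GABRQ (chrX:152637645-152637894) it is the 250 bases before the RefSeq start, which overlap no GENCODE 29 exon and lie upstream of the gene start in GENCODE 29. For GABRB1 (chr4:47031541-47031570) only 30 bases around 1 motif upstream of the RefSeq start are shown, since a first exon of GENCODE 29 covers them. They lie inside the GENCODE 29 gene, 37818 bases downstream of the annotated start that overlaps GABRA4.
GABRB1: agcgcgctctGCGCATGCGCaggtccattc
GRIN2D: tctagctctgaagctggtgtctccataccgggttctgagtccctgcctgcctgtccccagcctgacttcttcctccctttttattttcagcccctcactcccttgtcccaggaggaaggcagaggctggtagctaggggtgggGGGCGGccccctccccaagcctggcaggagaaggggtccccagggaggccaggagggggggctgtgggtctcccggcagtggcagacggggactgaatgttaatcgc
GABRQ: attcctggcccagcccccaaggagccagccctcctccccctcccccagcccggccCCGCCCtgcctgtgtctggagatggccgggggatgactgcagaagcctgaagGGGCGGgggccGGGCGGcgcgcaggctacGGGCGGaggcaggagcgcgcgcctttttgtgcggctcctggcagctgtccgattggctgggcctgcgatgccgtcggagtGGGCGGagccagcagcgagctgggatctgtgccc
Capitals mark matches on either strand to a palindrome known as the core of the NRF1 site, spelled by the capitals of the GABRB1 line, or to GGGCGG, the GC box bound by SP1 and its relatives. The 2 motifs do not overlap each other here. The motifs were chosen after the sequences had been seen. The NRF1 core stands in 1.03% of 35116 RefSeq windows of 250 upstream bases and in 1 of 35 windows of the 25 members that had one, that of GABRB1. The GC box stands in 42.6% of all windows and in 19 of the 35, 5 times in that of GABRQ and 1 time in that of GRIN2D. The AP-1 site TGAGTCA stands in 4.2% of all windows and in 1 of the 35, that of GABRR3. These matches describe letters and not binding.

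The minimum of 5 is a mean over all libraries, so GRIN2A, CHRNA4 and GABRR3, with Control means under 5, and GRID2IP, whose mean was 4.75 without shARID1B.2, passed it through conditions where they were high. Differences that involve those conditions were set up by this choice and are given for these 4 genes as a description, and counts are repeated without them. Of the other 29 members, leaving GABRB1 aside, GABRA4, GABRA5 and GRIN2D were called higher in all 6 comparisons with Control, a pattern that 6.51% of all rows tested showed. GABRQ alone was called lower in all 6, as were 7.52% of all rows. Calls in both directions were made for 12 of the 29, against 41.7% of all rows, and none for GABRG3 and GABRR2, against 5.06%. All 6 comparisons use the same 3 Control libraries, so values are given side by side.

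**Figure D1:**
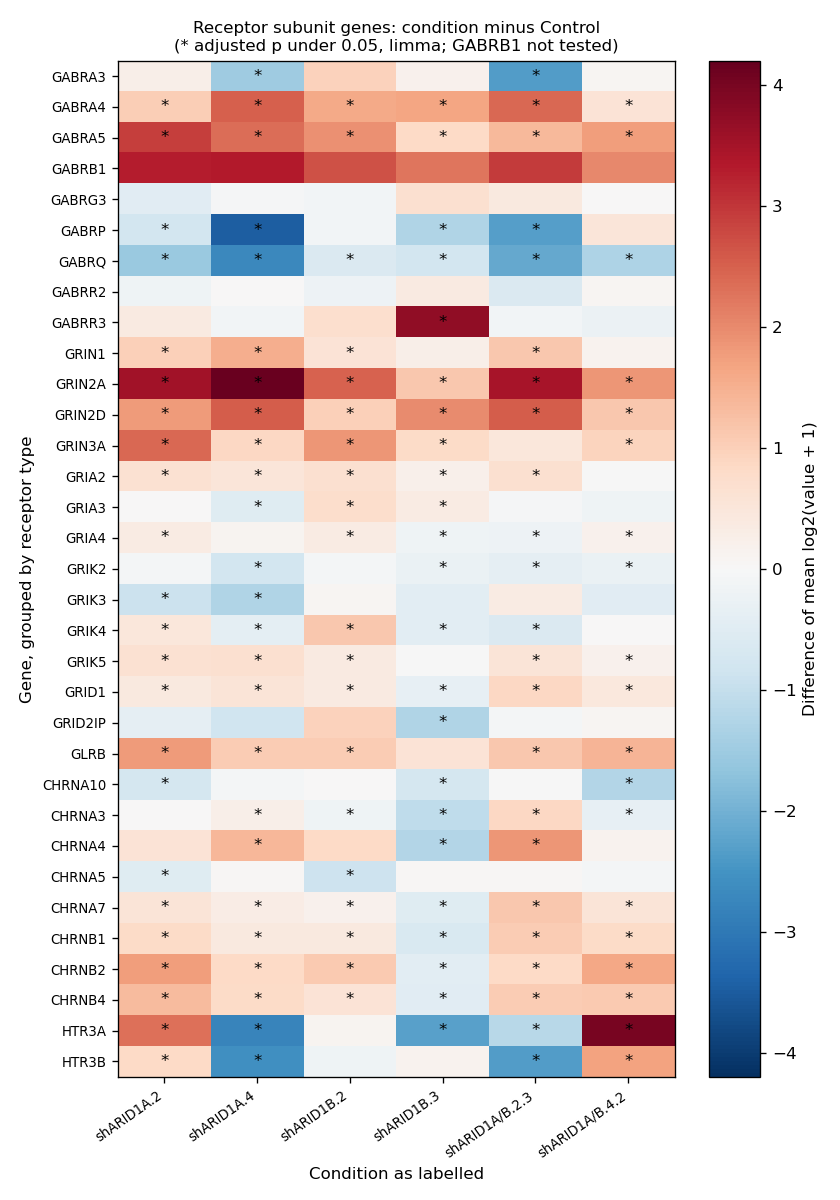
Difference of mean log2(value + 1) from Control for 33 of the 34 members (rows, by receptor type) in the 6 other conditions (columns), with red for higher and blue for lower. Asterisks mark an adjusted p under 0.05 in limma, and GABRB1 carries none because it was not tested. The asterisks on red cells of GRIN2A, CHRNA4 and GABRR3 are not read as tests. High conditions carried these genes past the minimum mean, so these differences are a description. GABRA4, GABRA5 and GRIN2D are red and marked in all 6 columns, as is GRIN2A, which had a Control mean under 5, and GABRQ is blue and marked in all 6.

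In shARID1A.2, 24 of 33 members were called, 19 higher and 5 lower, against 75.6% of all rows (37.6% higher and 38.1% lower), with a median difference of 0.47. The count was 26 in shARID1A.4, with 16 higher and 10 lower (all rows 73.5%, 37% and 36.5%), and the median was 0.10. For shARID1B.2 it was 21, with 18 higher and 3 lower (all rows 65.1%, 31.3% and 33.9%), and the median was 0.40. The count was 23 in shARID1B.3, with 8 higher and 15 lower (all rows 63.7%, 31.8% and 31.9%), and the median was -0.02. For shARID1A/B.2.3 it was 24, with 15 higher and 9 lower (all rows 69%, 35.1% and 33.9%), and the median was 0.42. The count was 20 in shARID1A/B.4.2, with 16 higher and 4 lower (all rows 70.7%, 34.8% and 36%), and the median was 0.17. Without the 4 genes set apart above, 23, 24, 20, 19, 22 and 19 of 29 were called in the same order. The median of all rows was between 0.01 and 0.02 in each. The calls covered 60.6% to 78.8% of the members and 63.7% to 75.6% of all rows. Higher calls outnumbered lower ones among the members in 5 conditions, and in shARID1B.3 the lower calls were more numerous. Scaling to total reads raised the share of higher calls among all called rows from 49.7% to 61.1% in shARID1A.2, from 48% to 63% in shARID1B.2 and from 49.1% to 64.8% in shARID1A/B.4.2, and moved the median of all rows there by 0.17, 0.14 and 0.19 on the log2 scale. Among called members the share of higher calls went from 79.2% to 87%, from 85.7% to 90% and from 80% to 86.4% in these conditions.

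Among the GABA-A receptor genes GABRB1 was higher than Control in every library of the other conditions, GABRA4 and GABRA5 rose in all 6 conditions and GABRQ fell in all 6. Of the 9 GABA-A members tested, 3 were called higher and 2 lower in shARID1A.2, 2 and 4 in shARID1A.4, 3 and 1 in shARID1B.2, 3 and 2 in shARID1B.3, 2 and 4 in shARID1A/B.2.3 and 3 and 1 in shARID1A/B.4.2. These are 44.4% to 66.7% of the 9, against 63.7% to 75.6% of all rows. Without GABRR3 the counts were the same except for 2 and 2 in shARID1B.3. The share of the 9 lay below that of all rows in each condition. Without GABRR3 it lay above that of all rows in shARID1A.4 and shARID1A/B.2.3 (6 of 8 called in each, all rows 73.5% and 69%) and below it in the other conditions. With scaling to total reads the counts of all 9, GABRR3 included, became 3 and 1 in shARID1A.2, 4 and 2 in shARID1B.3 and 4 and 1 in shARID1A/B.4.2. GABRB1 (ENSG00000163288) encodes the beta-1 subunit, and beta subunits form the GABA binding site together with alpha subunits. GABRB1 was 10.6, 13.4 and 9.24 in the Control libraries, 115, 129.8 and 104 in those labelled shARID1A.2 and 136, 112 and 112 in shARID1A.4. It was 80.5, 76.4 and 69.4 in shARID1B.2, 49.8, 60.8 and 57.9 in shARID1B.3, 97.2, 100.03 and 77.8 in shARID1A/B.2.3 and 53.7, 54.9 and 36.5 in shARID1A/B.4.2. The highest Control library lay below the lowest library of every other condition. The mean was 11.1 ± 2.14 (SD, n = 3) in Control, 119.8 ± 14 in shARID1A.4, where it was highest, and 48.4 ± 10.3 in shARID1A/B.4.2, where it was lowest among the others. Against Control the log2 difference was 3.28 in shARID1A.2, 3.33 in shARID1A.4, 2.67 in shARID1B.2, 2.25 in shARID1B.3, 2.95 in shARID1A/B.2.3 and 2.02 in shARID1A/B.4.2, each with a standard error of 0.17. These values led to the choice of the set and were not tested. Comparisons that do not involve Control showed 0.85 ± 0.12 between the labels shARID1A and shARID1B (adjusted p = 1.12e-06) and 0.82 ± 0.12 between shARID1A and shARID1A/B (adjusted p = 2.31e-06), with shARID1A higher in both. The labels shARID1B and shARID1A/B differed by -0.02 ± 0.12 (adjusted p = 0.883), and shARID1A.2 and shARID1A.4 by -0.05 ± 0.17 (adjusted p = 0.815). The difference between shARID1B.2 and shARID1B.3 was 0.42 ± 0.17, adjusted p = 0.0336, and it was no longer called without shARID1B.2 replicate 1 (0.37, adjusted p = 0.101), shARID1B.2 replicate 2 (0.41, adjusted p = 0.0724), shARID1B.3 replicate 1 (0.34, adjusted p = 0.128) or shARID1B.3 replicate 3 (0.45, adjusted p = 0.0514).

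**Figure D2:**
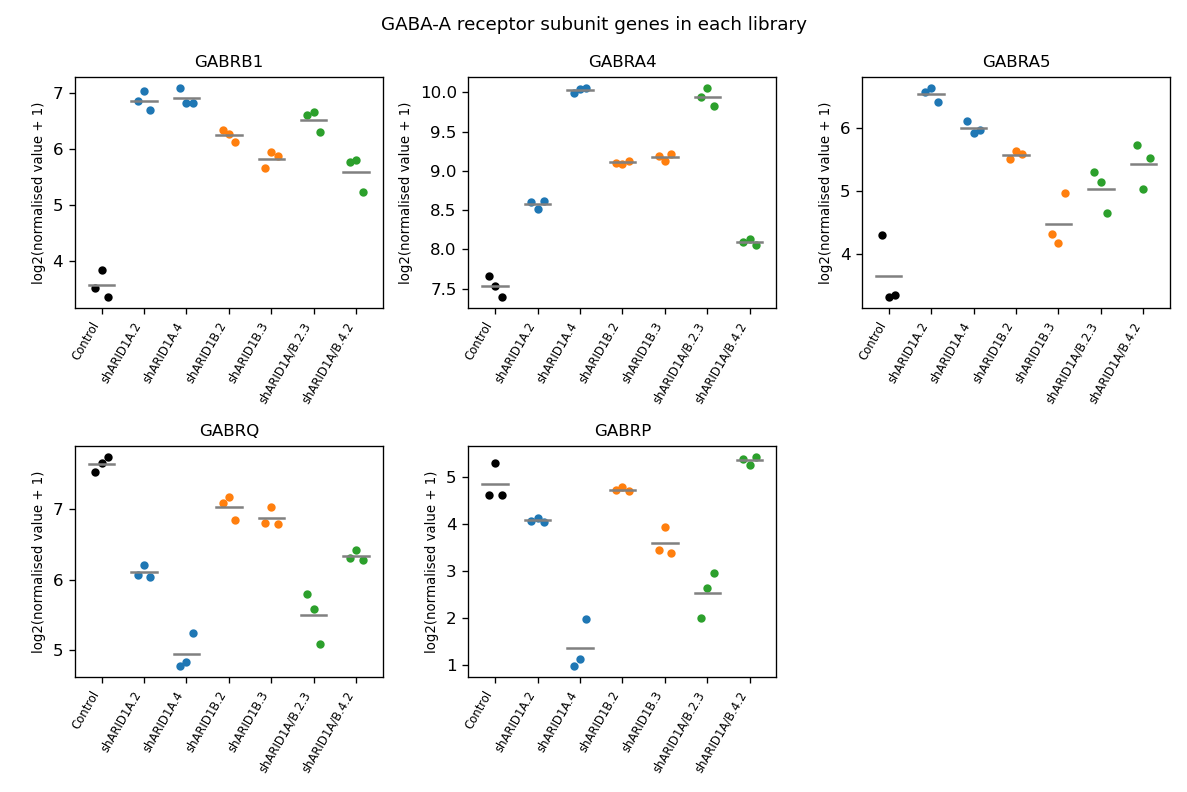
Level of 5 GABA-A receptor genes in every library, as log2(normalised value + 1) on an axis that does not start at 0, with 1 point per library and a grey line at the mean of 3. The means of GABRB1, GABRA4 and GABRA5 lie above Control in all other conditions, that of GABRQ lies below it, and GABRP is high in shARID1A/B.4.2 and low in shARID1A.4 and shARID1A/B.2.3. GABRB1 spans 9.24 to 13.4 in Control and 36.5 to 136 elsewhere.

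GABRA4, which encodes the alpha-4 subunit of extrasynaptic receptors and is the head-to-head neighbour of GABRB1, rose in all 6 conditions. GABRA4 was 202, 185 and 166 in the Control libraries, 386, 366 and 392 in those labelled shARID1A.2 and 1015, 1054 and 1061 in shARID1A.4. It was 548, 543 and 559 in shARID1B.2, 580.4, 558 and 591 in shARID1B.3, 981, 1065 and 909.7 in shARID1A/B.2.3 and 273, 280.4 and 264 in shARID1A/B.4.2. No library of another condition overlapped Control. The differences were 1.05 in shARID1A.2, 2.498 in shARID1A.4, 1.58 in shARID1B.2, 1.64 in shARID1B.3, 2.41 in shARID1A/B.2.3 and 0.57 in shARID1A/B.4.2, with an SE of 0.06 and adjusted p of at most 1.29e-08 in limma. The order of conditions was not that of GABRB1: shARID1A.2 minus shARID1A.4 was -1.45 ± 0.06 (adjusted p = 1.06e-16) for GABRA4, where GABRB1 gave -0.05.

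GABRA5, which encodes the alpha-5 subunit known from hippocampal tonic inhibition, also rose in all 6. GABRA5 was 18.8, 8.95 and 9.24 in the Control libraries, 94.7, 98.9 and 84.6 in those labelled shARID1A.2 and 68, 59.5 and 61.9 in shARID1A.4. It was 44.6, 48.6 and 47.1 in shARID1B.2, 18.9, 17.1 and 30.2 in shARID1B.3, 38.5, 34.4 and 24.3 in shARID1A/B.2.3 and 51.9, 31.7 and 45 in shARID1A/B.4.2. Control replicate 1 overlapped the libraries of shARID1B.3 and lay below all others. The differences were 2.89 in shARID1A.2, 2.34 in shARID1A.4, 1.92 in shARID1B.2, 0.83 in shARID1B.3, 1.38 in shARID1A/B.2.3 and 1.77 in shARID1A/B.4.2, with an SE of 0.25 and adjusted p of at most 0.00605. The call in shARID1B.3 was lost without shARID1B.3 replicate 3 (0.59, adjusted p = 0.0589). GABRA5 was higher under the label shARID1A than under shARID1B (1.24 ± 0.18, adjusted p = 1.12e-06) and shARID1A/B (1.04 ± 0.18, adjusted p = 1.84e-05).

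GABRQ, the gene of the theta subunit, an uncommon partner expressed in monoaminergic and hypothalamic neurons, fell in all 6 conditions. GABRQ was 184, 200.3 and 214 in the Control libraries, 65.7, 73.1 and 64.6 in those labelled shARID1A.2 and 26.2, 27.4 and 36.9 in shARID1A.4. It was 135, 144 and 114 in shARID1B.2, 110.5, 129 and 109.7 in shARID1B.3, 54.7, 46.9 and 33.1 in shARID1A/B.2.3 and 78.3, 85 and 76.8 in shARID1A/B.4.2. Every Control library lay above every other library. The differences were -1.54 in shARID1A.2, -2.70 in shARID1A.4, -0.61 in shARID1B.2, -0.77 in shARID1B.3, -2.15 in shARID1A/B.2.3 and -1.31 in shARID1A/B.4.2, with an SE of 0.16 and adjusted p of at most 0.00164. The fall was larger under the label shARID1A than under shARID1B (-1.43 ± 0.11, adjusted p = 3.21e-11) and smaller under shARID1B than under shARID1A/B (1.04 ± 0.11, adjusted p = 9.41e-09).

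GABRP and GABRA3 differed between conditions of the same label. GABRP encodes the pi subunit, which is found mainly outside the nervous system. GABRP was 23.5, 38 and 23.6 in the Control libraries, 15.8, 16.5 and 15.6 in those labelled shARID1A.2 and 0.97, 1.19 and 2.99 in shARID1A.4. It was 25.4, 26.6 and 24.9 in shARID1B.2, 9.96, 14.2 and 9.5 in shARID1B.3, 3.04, 5.21 and 6.81 in shARID1A/B.2.3 and 41, 37.1 and 42.1 in shARID1A/B.4.2. It was close to absent in shARID1A.4, at 1 to 3 reads per library, and within or above the Control range in shARID1A/B.4.2. The differences were -0.76 in shARID1A.2, -3.47 in shARID1A.4, -0.11 in shARID1B.2, -1.25 in shARID1B.3, -2.30 in shARID1A/B.2.3 and 0.52 in shARID1A/B.4.2 (SE 0.31), and it was called lower in shARID1A.2, shARID1A.4, shARID1B.3 and shARID1A/B.2.3. In shARID1A/B.4.2 the adjusted p was 0.137 in limma, and edgeR called it higher (0.53, adjusted p = 0.0341). The call in shARID1A.2 was lost without Control replicate 2 (-0.53, adjusted p = 0.16) and without any 1 of its own 3 libraries (adjusted p = 0.0603, 0.0512 and 0.0622 for replicates 1, 2 and 3).

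GABRA3, the gene of the alpha-3 subunit of developing and monoaminergic neurons, was low throughout. GABRA3 was 5.87, 3.36 and 17.5 in the Control libraries, 7.48, 8.24 and 11.1 in those labelled shARID1A.2 and 3.88, 0 and 3.99 in shARID1A.4. It was 11.4, 16.2 and 17.8 in shARID1B.2, 5.97, 9.5 and 10.4 in shARID1B.3, 0, 3.13 and 0 in shARID1A/B.2.3 and 6.38, 7.72 and 9.37 in shARID1A/B.4.2. Control itself spanned a wide range, and shARID1A.4 and shARID1A/B.2.3 had the lowest means and libraries at 0. It fell in shARID1A.4 (-1.50 ± 0.60, adjusted p = 0.0286) and in shARID1A/B.2.3 (-2.35 ± 0.60, adjusted p = 0.00129). In shARID1A/B.2.3 there were 3 reads in all against 25 in Control, a ratio of 0.11 (95% interval 0.0212 to 0.359) that covers counting error only. The call in shARID1A.4 was lost without Control replicate 3 (-0.92, adjusted p = 0.202) or without shARID1A.4 replicate 2 (-0.73, adjusted p = 0.261). Without Control replicate 3 it was also called higher in shARID1B.2 (1.54, adjusted p = 0.0395, against 0.95 with all libraries).

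GABRR3, which encodes the rho-3 subunit of retinal-type receptors, was high in 1 condition. GABRR3 was 2.35, 2.24 and 0 in the Control libraries, 1.66, 1.03 and 3.34 in those labelled shARID1A.2 and 0.97, 1.19 and 1 in shARID1A.4. It was 2.63, 5.79 and 0.89 in shARID1B.2, 19.9, 38 and 30.2 in shARID1B.3, 1.01, 3.13 and 0 in shARID1A/B.2.3 and 0.91, 2.32 and 0 in shARID1A/B.4.2. Its 3 shARID1B.3 libraries lay above all other libraries, whose values were at most 5.79. Control held 4 reads in all and shARID1B.3 held 95. The log2 difference from Control in shARID1B.3 was 3.73 and that between shARID1B.2 and shARID1B.3 was -3.03. GABRR3 has a mean of 5.65, the member closest to the minimum of 5, and passed it only through shARID1B.3, so these differences have no test.

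The remaining GABA-A members differed from Control by less than 1 on the log2 scale. GABRG3, which encodes the gamma-3 subunit, differed from Control by -0.49 to 0.66 (SE 0.30), and GABRR2, which encodes the rho-2 subunit, by -0.62 to 0.38 (SE 0.34), without a call in any condition. GABRG3 in shARID1B.3 was near the threshold (adjusted p = 0.0558), and it was called higher in edgeR (0.68, adjusted p = 0.0383) and without Control replicate 1 (0.84, adjusted p = 0.0303). GABRR2 in shARID1A/B.2.3 was called lower without Control replicate 2 (-0.85, adjusted p = 0.0488) or shARID1A/B.2.3 replicate 2 (-1.01, adjusted p = 0.0133).

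Of the NMDA receptor genes, GRIN2D rose in all 6 conditions, GRIN1 in 4 and GRIN3A in 5. NMDA receptors need the obligate GRIN1 subunit together with GRIN2 or GRIN3 subunits, and they pass calcium when glutamate and glycine or serine are bound. Of these 3 members, 3 were called higher in shARID1A.2, shARID1A.4 and shARID1B.2 (all rows 37.6%, 37% and 31.3%) and 2 in shARID1B.3, shARID1A/B.2.3 and shARID1A/B.4.2 (all rows 31.8%, 35.1% and 34.8%), with 0 called lower in any. GRIN1 was not called in shARID1B.3 (adjusted p = 0.0703) or shARID1A/B.4.2 (adjusted p = 0.286), nor GRIN3A in shARID1A/B.2.3 (adjusted p = 0.0968). The median difference of the 3 was 1.78, 1.51, 1.002, 0.79, 1.14 and 0.94 in the order of the labels above, where the median of all rows was 0.02 at most. With scaling to total reads the counts in shARID1B.3 and shARID1A/B.4.2 were 3, and the other comparisons with Control kept their counts.

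**Figure D3:**
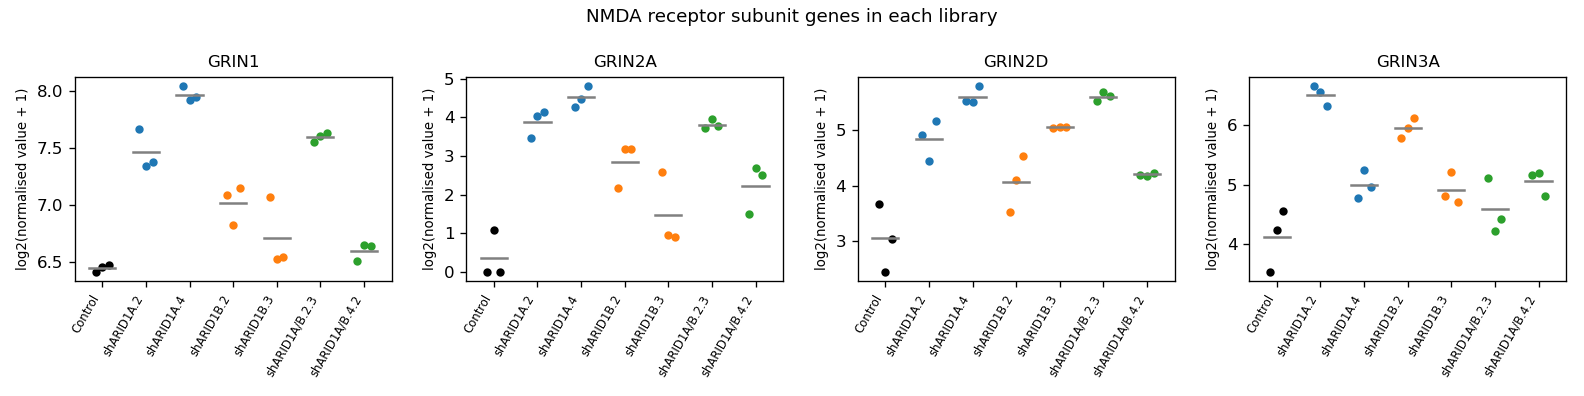
Level of the 4 NMDA receptor members in every library, as log2(normalised value + 1) on an axis that does not start at 0, with 1 point per library and a grey line at the mean of 3. Control points lie at or near the bottom of each panel, GRIN1, GRIN2A and GRIN2D are highest in shARID1A.4 or shARID1A/B.2.3, and GRIN3A is highest in shARID1A.2.

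GRIN1 was 84.6, 87.3 and 88.3 in the Control libraries, 202, 162 and 166 in those labelled shARID1A.2 and 262, 241 and 246 in shARID1A.4. It was 136, 112 and 141 in shARID1B.2, 133, 91.2 and 92.4 in shARID1B.3, 187, 194 and 198 in shARID1A/B.2.3 and 90.2, 99.7 and 99.3 in shARID1A/B.4.2. The libraries closest to the Control range were those of shARID1B.3 and shARID1A/B.4.2. The differences were 1.01 in shARID1A.2, 1.51 in shARID1A.4, 0.57 in shARID1B.2, 0.26 in shARID1B.3, 1.14 in shARID1A/B.2.3 and 0.15 in shARID1A/B.4.2 (SE 0.12), with adjusted p = 0.0703 in shARID1B.3 and 0.286 in shARID1A/B.4.2 and a call in the other 4. In shARID1B.3 it was called without shARID1B.3 replicate 2 (0.35, adjusted p = 0.0253) or shARID1B.3 replicate 3 (0.34, adjusted p = 0.0314). GRIN2D, whose product is an early, slowly deactivating subunit, was low in Control. GRIN2D was 11.8, 4.48 and 7.19 in the Control libraries, 29.1, 20.6 and 34.5 in those labelled shARID1A.2 and 44.7, 44 and 53.9 in shARID1A.4. It was 10.5, 16.2 and 22.2 in shARID1B.2, 31.9, 32.3 and 31.9 in shARID1B.3, 44.5, 50 and 47.7 in shARID1A/B.2.3 and 17.3, 17 and 17.8 in shARID1A/B.4.2. A Control library overlapped the lowest of shARID1B.2, and no other library overlapped Control. Its differences were 1.78 in shARID1A.2, 2.54 in shARID1A.4, 1.002 in shARID1B.2, 1.99 in shARID1B.3, 2.54 in shARID1A/B.2.3 and 1.15 in shARID1A/B.4.2 (SE 0.27), with adjusted p of at most 0.00256.

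GRIN2A encodes the subunit typical of mature synapses. GRIN2A was 0, 1.12 and 0 in the Control libraries, 9.97, 15.4 and 16.7 in those labelled shARID1A.2 and 18.4, 21.4 and 26.9 in shARID1A.4. It was 3.5, 8.1 and 8 in shARID1B.2, 4.98, 0.95 and 0.86 in shARID1B.3, 12.2, 14.6 and 12.7 in shARID1A/B.2.3 and 1.82, 5.41 and 4.68 in shARID1A/B.4.2. Control held 1 read over 3 libraries and was the lowest condition. Because the fitted differences depend on the pseudocount at this depth, ratios of reads with exact intervals for counting error are given. They were 37.2 (95% interval 6.32 to 1502) in shARID1A.2, 60.6 (95% interval 10.5 to 2429) in shARID1A.4, 17.4 (95% interval 2.78 to 720) in shARID1B.2, 5.92 (95% interval 0.76 to 267) in shARID1B.3, 35.6 (95% interval 6.03 to 1443) in shARID1A/B.2.3 and 11 (95% interval 1.67 to 465) in shARID1A/B.4.2. The smallest log2 difference from Control was 1.12, in shARID1B.3. It was 0.94 without Control replicate 1 or Control replicate 3 and 0.57 without shARID1B.3 replicate 1. GRIN2A passed the minimum through its high conditions, so its differences from Control are a description without a test. The label means of shARID1A differed from those of shARID1B and shARID1A/B by 2.04 and 1.18.

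GRIN3A encodes a subunit that lowers calcium permeability. GRIN3A was 10.6, 17.9 and 22.6 in the Control libraries, 99.7, 93.7 and 79.1 in those labelled shARID1A.2 and 26.2, 36.9 and 29.9 in shARID1A.4. It was 54.3, 61.4 and 68.5 in shARID1B.2, 26.9, 36.1 and 25 in shARID1B.3, 33.4, 17.7 and 20.4 in shARID1A/B.2.3 and 34.6, 35.5 and 27.2 in shARID1A/B.4.2. The libraries of shARID1A.2 were the highest, those of shARID1B.2 came next, and those of shARID1A/B.2.3 overlapped Control. It rose in 5 conditions, with differences of 2.40 in shARID1A.2, 0.88 in shARID1A.4, 1.85 in shARID1B.2, 0.79 in shARID1B.3, 0.47 in shARID1A/B.2.3 and 0.94 in shARID1A/B.4.2 (SE 0.25) and adjusted p = 0.0968 in shARID1A/B.2.3. The call in shARID1B.3 was lost without Control replicate 1 (0.50, adjusted p = 0.0814). In shARID1A/B.2.3 a call was gained without Control replicate 3 (0.70, adjusted p = 0.0234) or shARID1A/B.2.3 replicate 2 (0.65, adjusted p = 0.0382). GRIN2B, GRIN2C and GRIN3B had means under 5 and are not members.

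The AMPA receptor genes, whose products carry fast excitatory currents, changed by less than 1 on the log2 scale. GRIA2, whose edited product makes the channel impermeable to calcium, ranged from 293 to 570.2 over all libraries and rose in 5 conditions, by 0.22 in shARID1B.3 and by 0.51 to 0.67 in shARID1A.2, shARID1A.4, shARID1B.2 and shARID1A/B.2.3. GRIA3 ranged from 62.1 to 188 and was highest in shARID1B.2 (0.72 ± 0.13, adjusted p = 3.9e-05) and lowest in shARID1A.4 (-0.52 ± 0.13, adjusted p = 0.00119). GRIA4 ranged from 308 to 522, with differences of -0.21 to 0.33 (SE 0.07), and it was called higher in 3 conditions and lower in 2. Its calls in shARID1B.3 (-0.18) and shARID1A/B.4.2 (0.18) and those of GRIA2 and GRIA3 in shARID1B.3 (0.22 and 0.35) were lost on leaving out single libraries. The largest adjusted p was 0.26 for GRIA4 in shARID1B.3 without its replicate 2, 0.226 for GRIA4 in shARID1A/B.4.2 without its replicate 1, 0.13 for GRIA2 without shARID1B.3 replicate 1 and 0.0793 for GRIA3 without shARID1B.3 replicate 3. GRID1, a delta receptor that acts in synapse formation, was called higher in 5 conditions and lower in shARID1B.3 (-0.36 ± 0.06, adjusted p = 5.93e-06), and its largest difference was in shARID1A/B.2.3 (0.85 ± 0.06, adjusted p = 1.21e-12).

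Of the 4 kainate receptor genes, GRIK2 and GRIK3 were called only lower, GRIK5 only higher and GRIK4 in both directions. GRIK2 and GRIK5, which encode a low-affinity and a high-affinity subunit of the same receptors, were among the 5 members with the highest Control level per kilobase of exon (211 and 170). GRIK2 was 1694, 1571 and 1543 in the Control libraries, 1529.8, 1525 and 1472 in those labelled shARID1A.2 and 985, 868 and 995 in shARID1A.4. It was 1508, 1557 and 1511 in shARID1B.2, 1367, 1306 and 1325 in shARID1B.3, 1222, 1240.0 and 1278 in shARID1A/B.2.3 and 1360, 1278 and 1352 in shARID1A/B.4.2. The shARID1A.4 libraries were the lowest. GRIK2 was called lower in 4 conditions, with differences of -0.76 ± 0.04 in shARID1A.4 and -0.36, -0.27 and -0.27 in shARID1A/B.2.3, shARID1B.3 and shARID1A/B.4.2, and the last of these was not called with scaling to total reads (-0.08, adjusted p = 0.127). Without Control replicate 3 it was also called lower in shARID1A.2 (-0.11, adjusted p = 0.0441). GRIK5 was 813, 858 and 889 in the Control libraries, 1351, 1302 and 1323 in those labelled shARID1A.2 and 1369, 1383 and 1362 in shARID1A.4. It was 1113, 1089 and 1137 in shARID1B.2, 939.8, 792 and 801 in shARID1B.3, 1274, 1194 and 1266 in shARID1A/B.2.3 and 967, 979.5 and 928 in shARID1A/B.4.2. Libraries of shARID1B.3 overlapped Control and those of the other conditions lay above it. GRIK5 was called higher in 5 conditions, with differences of 0.64 in shARID1A.2, 0.68 in shARID1A.4, 0.38 in shARID1B.2, -0.02 in shARID1B.3, 0.54 in shARID1A/B.2.3 and 0.17 in shARID1A/B.4.2 (SE 0.05). In shARID1B.3 it was called lower without shARID1B.3 replicate 1 (-0.10, adjusted p = 0.0456).

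GRIK3 and GRIK4 encode further low- and high-affinity kainate subunits. GRIK3 was 50.5, 52.6 and 45.2 in the Control libraries, 22.4, 21.6 and 35.6 in those labelled shARID1A.2 and 22.3, 13.1 and 26.9 in shARID1A.4. It was 57.8, 49.8 and 50.7 in shARID1B.2, 28.9, 41.8 and 38 in shARID1B.3, 58.7, 65.7 and 66.2 in shARID1A/B.2.3 and 42.8, 30.9 and 31.8 in shARID1A/B.4.2. All libraries of shARID1A.2 and shARID1A.4 lay below the Control range, and GRIK3 was called lower in shARID1A.2 (-0.90 ± 0.23, adjusted p = 0.00107) and shARID1A.4 (-1.27 ± 0.23, adjusted p = 2.69e-05) alone. In shARID1A/B.4.2 (adjusted p = 0.0604) it was called lower without shARID1A/B.4.2 replicate 1 (-0.64, adjusted p = 0.0307). GRIK4 was 55.2, 52.6 and 83.2 in the Control libraries, 83.1, 80.3 and 96.9 in those labelled shARID1A.2 and 51.5, 41.6 and 45.9 in shARID1A.4. It was 144, 147 and 126 in shARID1B.2, 50.8, 42.8 and 44 in shARID1B.3, 42.5, 42.7 and 36 in shARID1A/B.2.3 and 61, 61 and 65.6 in shARID1A/B.4.2. The shARID1B.2 libraries were the highest. GRIK4 rose in shARID1B.2 (1.14 ± 0.16, adjusted p = 6.95e-07) and shARID1A.2 (0.47), and fell in shARID1A.4 (-0.42), shARID1B.3 (-0.44) and shARID1A/B.2.3 (-0.62 ± 0.16, adjusted p = 0.00129).

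Leaving out 1 library ended 3 of the GRIK4 calls. In shARID1A.2 these libraries were Control replicate 1 (0.38, adjusted p = 0.0538), Control replicate 2 (0.35, adjusted p = 0.0705) and shARID1A.2 replicate 3 (0.39, adjusted p = 0.0542). In shARID1A.4 they were Control replicate 3 (-0.22, adjusted p = 0.203) and shARID1A.4 replicate 2 (-0.35, adjusted p = 0.0774). In shARID1B.3 they were Control replicate 3 (-0.23, adjusted p = 0.194), shARID1B.3 replicate 2 (-0.39, adjusted p = 0.0623) and shARID1B.3 replicate 3 (-0.41, adjusted p = 0.0519).

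GRID2IP matched the symbol pattern but encodes a scaffold protein that binds a delta receptor and is not a subunit. GRID2IP was 7.05, 11.2 and 2.05 in the Control libraries, 9.14, 2.06 and 3.34 in those labelled shARID1A.2 and 1.94, 3.57 and 2.99 in shARID1A.4. It was 9.63, 15.1 and 12.4 in shARID1B.2, 1, 4.75 and 0.86 in shARID1B.3, 4.05, 6.25 and 5.84 in shARID1A/B.2.3 and 10, 3.86 and 5.62 in shARID1A/B.4.2. All conditions were low and each overlapped the Control range. It was called in shARID1B.3 alone (-1.27 ± 0.54, adjusted p = 0.045), and the call was lost without Control replicate 1 (-1.14, adjusted p = 0.118), Control replicate 2 (-0.84, adjusted p = 0.229), shARID1B.3 replicate 1 (-1.03, adjusted p = 0.147) or shARID1B.3 replicate 3 (-0.98, adjusted p = 0.166) and in edgeR (-1.53, adjusted p = 0.0539). Another call appeared in shARID1A.4 without Control replicate 3 (-1.39, adjusted p = 0.0292). In shARID1B.2, the condition that carried GRID2IP past the minimum, the difference was 0.98, and 1.41 without Control replicate 2. These 2 values are a description without a test. GLRB, the only glycine receptor member, encodes the beta subunit that anchors the receptor to the scaffold gephyrin. GLRB was 7.05, 10.1 and 12.3 in the Control libraries, 34.9, 40.2 and 31.2 in those labelled shARID1A.2 and 20.4, 19 and 23.9 in shARID1A.4. It was 20.1, 25.5 and 18.7 in shARID1B.2, 15.9, 8.55 and 23.3 in shARID1B.3, 27.3, 21.9 and 18.5 in shARID1A/B.2.3 and 35.5, 22.4 and 26.2 in shARID1A/B.4.2. No library of shARID1A.2, shARID1A.4, shARID1B.2, shARID1A/B.2.3 or shARID1A/B.4.2 overlapped Control, whereas those of shARID1B.3 did. GLRB rose in 5 conditions, with differences of 1.77 in shARID1A.2, 1.06 in shARID1A.4, 1.07 in shARID1B.2, 0.58 in shARID1B.3, 1.14 in shARID1A/B.2.3 and 1.43 in shARID1A/B.4.2 (SE 0.29) and adjusted p = 0.0882 in shARID1B.3, where it was called without shARID1B.3 replicate 2 (0.94, adjusted p = 0.0062). The alpha subunit genes GLRA1 and GLRA2 were at 0 in every library, and GLRA3 and GLRA4 had means of 1.45 and 0.856.

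Of the 8 nicotinic receptor members, 7 fell in shARID1B.3 and 0 rose (all rows 31.9% lower and 31.8% higher), with a median difference of -0.58, and CHRNA5 was not called (adjusted p = 0.5). In shARID1A/B.2.3 and shARID1A.4, 6 were called higher and 0 lower (all rows 35.1% and 37% higher), with medians of 0.96 and 0.36. Without CHRNA4, 6 of 7 were lower in shARID1B.3 and 5 of 7 higher in each of the other 2. In shARID1A.2, shARID1B.2 and shARID1A/B.4.2, 4 were called higher and 2 lower (all rows 75.6%, 65.1% and 70.7% called), which under scaling to total reads became 5 and 1, 4 and 1, and 5 and 2. Between the 2 conditions labelled shARID1B, all 8 differed, 7 being higher in shARID1B.2 and CHRNA5 lower, with all 3 scalings (all rows 65.7%, 32.7% higher). CHRNA10 was not called there without shARID1B.2 replicate 1 (0.72, adjusted p = 0.051) or shARID1B.3 replicate 1 (0.53, adjusted p = 0.12). Between labels, 7 of 8 were higher in shARID1A than in shARID1B (all rows 67%, 34.4% higher) and 7 of 8 lower in shARID1B than in shARID1A/B (all rows 69.8%, 34.9% lower), with 0 in the other direction and no change of these counts with scaling. Without CHRNA4 these were 7 of 7 between the conditions labelled shARID1B, 6 of them higher in shARID1B.2, and 6 of 7 in both label comparisons. The label shARID1B thus joins 2 conditions with unlike values.

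CHRNA3, CHRNA5 and CHRNB4 encode the subunits of the ganglionic nicotinic receptor and lie in 1 gene cluster. CHRNA3 had the highest Control level of all members per kilobase of exon (1248). CHRNA3 was 5899.7, 5882 and 6062 in the Control libraries, 5845, 6244 and 5903 in those labelled shARID1A.2 and 7082, 7167 and 6983 in shARID1A.4. It was 5341, 5266 and 5227 in shARID1B.2, 2955, 2793 and 2812 in shARID1B.3, 11226, 10617 and 10909 in shARID1A/B.2.3 and 4777, 4582 and 4562 in shARID1A/B.4.2. The shARID1A/B.2.3 libraries were the highest and those of shARID1B.3 the lowest. The differences were 0.01 in shARID1A.2, 0.25 in shARID1A.4, -0.17 in shARID1B.2, -1.06 in shARID1B.3, 0.88 in shARID1A/B.2.3 and -0.36 in shARID1A/B.4.2 (SE 0.03), called in all but shARID1A.2. With scaling to total reads CHRNA3 was called higher in shARID1A.2 (0.18, adjusted p = 1.4e-06) and was not called in shARID1B.2 (-0.04, adjusted p = 0.247).

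CHRNB4 was 805, 820.4 and 822 in the Control libraries, 2031, 2118 and 2003 in those labelled shARID1A.2 and 1399, 1434 and 1392 in shARID1A.4. It was 1145, 1202 and 1290.3 in shARID1B.2, 660.0, 512 and 584 in shARID1B.3, 1721, 1740.2 and 1713 in shARID1A/B.2.3 and 1830.0, 1719 and 1703 in shARID1A/B.4.2. Every library of shARID1B.3 lay below Control and every library of the other 5 conditions above it. The differences were 1.33 in shARID1A.2, 0.79 in shARID1A.4, 0.57 in shARID1B.2, -0.49 in shARID1B.3, 1.08 in shARID1A/B.2.3 and 1.10 in shARID1A/B.4.2 (SE 0.06), with adjusted p of at most 7.29e-08. CHRNA5 encodes an accessory subunit that modifies the receptor. CHRNA5 was 1057, 1087 and 1113 in the Control libraries, 778, 717 and 769.5 in those labelled shARID1A.2 and 1055, 1161 and 1169.6 in shARID1A.4. It was 586, 573 and 612 in shARID1B.2, 1127, 1083 and 1125 in shARID1B.3, 1145, 1089.9 and 1127 in shARID1A/B.2.3 and 1028, 1044 and 1034 in shARID1A/B.4.2. The shARID1A.2 and shARID1B.2 libraries lay below all others. CHRNA5 was called lower in shARID1A.2 (-0.52 ± 0.04, adjusted p = 4.2e-11) and shARID1B.2 (-0.88 ± 0.04, adjusted p = 3.3e-15) and differed by -0.07 to 0.05 elsewhere, without a call. In shARID1A/B.4.2 the direction turned with scaling to total reads (0.12, adjusted p = 0.015), and in shARID1A.4 it was called higher without shARID1A.4 replicate 1 (0.10, adjusted p = 0.0385). Within the cluster, CHRNA3 and CHRNB4 were lower in shARID1B.3, where CHRNA5 gave a difference of 0.03 ± 0.04.

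CHRNB2 encodes the main beta subunit of brain nicotinic receptors, usually paired with CHRNA4. CHRNB2 was 1362, 1413 and 1438 in the Control libraries, 4668, 4695 and 4721 in those labelled shARID1A.2 and 2539, 2508 and 2514 in shARID1A.4. It was 3185, 2847 and 2998 in shARID1B.2, 1119.9, 928 and 1026 in shARID1B.3, 2600.2, 2456 and 2452 in shARID1A/B.2.3 and 4637, 4223 and 4221 in shARID1A/B.4.2. Only the shARID1B.3 libraries lay below Control, and all others lay above it. The differences were 1.74 in shARID1A.2, 0.84 in shARID1A.4, 1.10 in shARID1B.2, -0.46 in shARID1B.3, 0.83 in shARID1A/B.2.3 and 1.63 in shARID1A/B.4.2 (SE 0.05), with adjusted p of at most 1.33e-08. CHRNA4 was far lower. CHRNA4 was 3.52, 3.36 and 4.11 in the Control libraries, 3.32, 9.27 and 6.68 in those labelled shARID1A.2 and 11.7, 11.9 and 9.98 in shARID1A.4. It was 7.88, 8.1 and 6.22 in shARID1B.2, 2.99, 0.95 and 0 in shARID1B.3, 12.2, 16.7 and 19.5 in shARID1A/B.2.3 and 2.73, 3.86 and 6.56 in shARID1A/B.4.2. The libraries of shARID1A.4, shARID1B.2 and shARID1A/B.2.3 lay above Control and those of shARID1B.3 below it. Its differences in shARID1A.4 (1.38) and shARID1A/B.2.3 (1.85) are a description, since these conditions carried it past the minimum. It was called lower in shARID1B.3 (-1.23 ± 0.45, adjusted p = 0.0191), where 4 reads were left. This call was lost without Control replicate 3 (-1.16, adjusted p = 0.0515), without shARID1B.3 replicate 3 (-0.74, adjusted p = 0.158) and in edgeR (adjusted p = 0.0836) and DESeq2 (adjusted p = 0.148).

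CHRNA7 encodes the subunit of the homomeric, calcium-permeable receptor. CHRNA7 was 713, 729.8 and 765 in the Control libraries, 1093, 1098 and 1018 in those labelled shARID1A.2 and 918, 868 and 941 in shARID1A.4. It was 894, 808 and 824 in shARID1B.2, 538, 502 and 500.8 in shARID1B.3, 1642, 1536 and 1624 in shARID1A/B.2.3 and 982, 1088 and 1116 in shARID1A/B.4.2. The shARID1B.3 libraries lay below Control, those of all other conditions above it, and those of shARID1A/B.2.3 highest. The differences were 0.54 in shARID1A.2, 0.30 in shARID1A.4, 0.19 in shARID1B.2, -0.52 in shARID1B.3, 1.12 in shARID1A/B.2.3 and 0.53 in shARID1A/B.4.2 (SE 0.05), all of them called. CHRNB1 encodes a subunit of the muscle receptor. CHRNB1 was 38.8, 50.4 and 41.1 in the Control libraries, 78.1, 83.4 and 66.8 in those labelled shARID1A.2 and 69.9, 46.4 and 59.9 in shARID1A.4. It was 55.1, 63.7 and 53.4 in shARID1B.2, 29.9, 24.7 and 27.6 in shARID1B.3, 97.2, 84.4 and 90.5 in shARID1A/B.2.3 and 82, 78 and 70.2 in shARID1A/B.4.2. Libraries of shARID1B.3 were the lowest and those of shARID1A/B.2.3 the highest. The differences were 0.80 in shARID1A.2, 0.42 in shARID1A.4, 0.40 in shARID1B.2, -0.64 in shARID1B.3, 1.05 in shARID1A/B.2.3 and 0.81 in shARID1A/B.4.2 (SE 0.16), all of them called.

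The CHRNB1 calls in shARID1A.4 and shARID1B.2 rested on single libraries. In shARID1A.4 the call was lost without Control replicate 1 (0.34, adjusted p = 0.0864), Control replicate 3 (0.38, adjusted p = 0.061), shARID1A.4 replicate 1 (0.28, adjusted p = 0.141) or shARID1A.4 replicate 3 (0.39, adjusted p = 0.056). In shARID1B.2 it was lost without Control replicate 1 (0.32, adjusted p = 0.114), Control replicate 3 (0.37, adjusted p = 0.0813) or shARID1B.2 replicate 2 (0.32, adjusted p = 0.119). CHRNA10, whose product works in cochlear hair cells together with that of CHRNA9, was the other low nicotinic member. CHRNA10 was 24.7, 24.6 and 24.6 in the Control libraries, 10.8, 16.5 and 16.7 in those labelled shARID1A.2 and 18.4, 26.2 and 25.9 in shARID1A.4. It was 27.1, 25.5 and 23.1 in shARID1B.2, 9.96, 19 and 15.5 in shARID1B.3, 18.2, 34.4 and 23.4 in shARID1A/B.2.3 and 8.2, 12.4 and 9.37 in shARID1A/B.4.2. It was lowest in shARID1A/B.4.2, outside the Control range, and was called lower there (-1.24 ± 0.27, adjusted p = 0.000284), in shARID1A.2 (-0.74 ± 0.27, adjusted p = 0.0182) and in shARID1B.3 (-0.74 ± 0.27, adjusted p = 0.0217). Without replicate 1 of their own condition the last 2 were no longer called (-0.54, adjusted p = 0.105 in shARID1A.2 and -0.50, adjusted p = 0.145 in shARID1B.3).

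HTR3A and HTR3B had the largest differences between their highest and lowest conditions of all members on the log2 scale. Both were called higher in shARID1A.2 and shARID1A/B.4.2 and lower in shARID1A.4 and shARID1A/B.2.3. HTR3A encodes the subunit that every 5-HT3 receptor needs and HTR3B an accessory one, and the genes are neighbours. HTR3A was 36.4, 23.5 and 33.9 in the Control libraries, 151, 152 and 167 in those labelled shARID1A.2 and 1.94, 5.95 and 3.99 in shARID1A.4. It was 35, 31.3 and 33.8 in shARID1B.2, 6.97, 6.65 and 3.45 in shARID1B.3, 8.1, 18.8 and 14.6 in shARID1A/B.2.3 and 540.2, 486 and 489.8 in shARID1A/B.4.2. The shARID1A/B.4.2 and shARID1A.2 libraries lay far above Control, those of shARID1B.2 within its range, and those of shARID1A.4, shARID1B.3 and shARID1A/B.2.3 below it. The differences were 2.31 in shARID1A.2, -2.76 in shARID1A.4, 0.11 in shARID1B.2, -2.29 in shARID1B.3, -1.17 in shARID1A/B.2.3 and 3.99 in shARID1A/B.4.2 (SE 0.29), and all but that in shARID1B.2 (adjusted p = 0.752) were called.

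**Figure D4:**
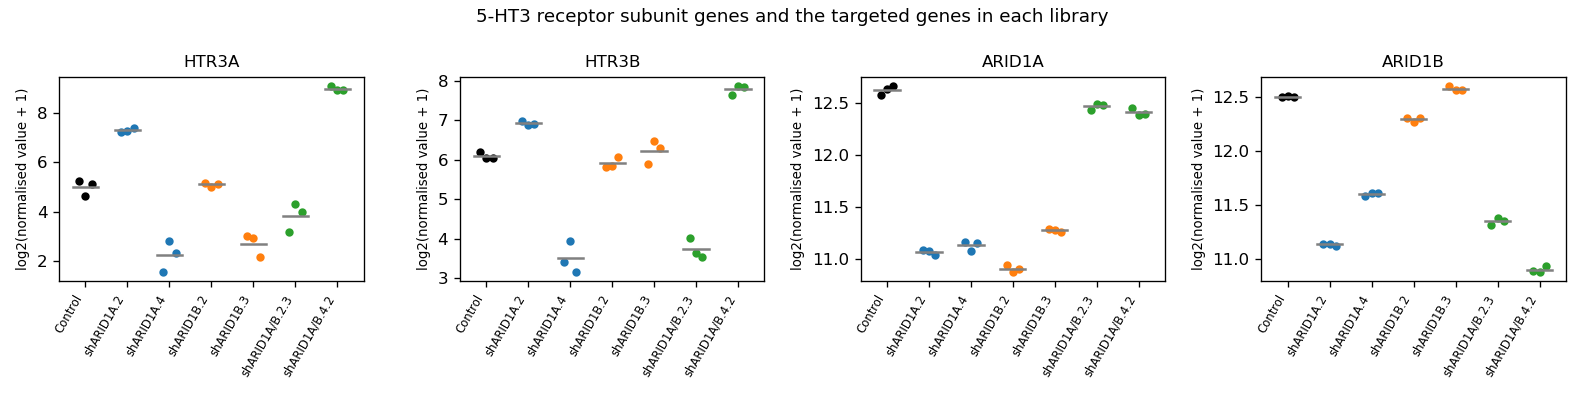
Level of HTR3A, HTR3B, ARID1A and ARID1B in every library, as log2(normalised value + 1) on an axis that does not start at 0, with 1 point per library and a grey line at the mean of 3. HTR3A and HTR3B are high in shARID1A.2 and shARID1A/B.4.2 and low in shARID1A.4 and shARID1A/B.2.3, HTR3A is also low in shARID1B.3, and ARID1A is low in the conditions labelled shARID1A and shARID1B and ARID1B in those labelled shARID1A and shARID1A/B.

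HTR3B was 72.8, 64.9 and 64.7 in the Control libraries, 126, 116 and 120.3 in those labelled shARID1A.2 and 9.71, 14.3 and 7.98 in shARID1A.4. It was 56, 56.7 and 66.7 in shARID1B.2, 58.7, 88.4 and 78.6 in shARID1B.3, 15.2, 11.5 and 10.7 in shARID1A/B.2.3 and 200.4, 232 and 231 in shARID1A/B.4.2. The libraries of shARID1A.4 and shARID1A/B.2.3 were the lowest and those of shARID1A/B.4.2 the highest, and those of shARID1B.2 and shARID1B.3 overlapped Control. The differences were 0.83 in shARID1A.2, -2.59 in shARID1A.4, -0.17 in shARID1B.2, 0.14 in shARID1B.3, -2.36 in shARID1A/B.2.3 and 1.70 in shARID1A/B.4.2 (SE 0.19), with adjusted p = 0.427 in shARID1B.2 and 0.539 in shARID1B.3 and calls in the other 4. HTR3C and HTR3D had means of 0.28 and 0.0533, and HTR3E was at 0 in every library. The summed level of the 15 markers of other cell types given above was likewise above Control in shARID1A.2 and shARID1A/B.4.2 and below it in the other 4 conditions. Single markers did not share 1 pattern. EPCAM, an epithelial gene, was at 60.6 to 75.2 in Control, 207 to 227 in shARID1A.2 and 150 to 177 in shARID1A/B.4.2, but also at 107 to 147 in shARID1A.4 and 115 to 121 in shARID1B.3, and CDH1, another, was at 5.41 at most. PTPRC, a leukocyte gene, was at 399 to 426 in Control, 100.6 to 125 in shARID1A.2 and 141 to 172 in shARID1A/B.4.2. Their part in the result was not tested.

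The 2 conditions of each label differed in many members. Between shARID1A.2 and shARID1A.4, 23 of 34 were called, 16 of them higher in shARID1A.2 (75.2% of all rows). Between shARID1B.2 and shARID1B.3 it was 28, with 24 higher in shARID1B.2 (65.7% of all rows), and between shARID1A/B.2.3 and shARID1A/B.4.2 it was 23, with 14 higher in shARID1A/B.2.3 (74.4%). The rows higher in the condition named first were 37.9%, 32.7% and 37% of all. Scaling to total reads moved the share of higher calls among all called rows from 50.4% to 60.6%, from 49.8% to 60.7% and from 49.7% to 38.8%, and gave 18 members higher and 5 lower, 24 and 3, and 13 and 13, in place of 16 and 7, 24 and 4, and 14 and 9. Differences of 1 or more in size were called for 7, 12 and 10 members in these comparisons, against 23.4%, 13.5% and 21.8% of all rows. Without the 4 genes that passed the minimum through high conditions, 23, 24 and 21 of 30 were called, and 7, 8 and 8 at that size. HTR3A differed by 5.08 ± 0.29 (adjusted p = 3.88e-14) between the conditions labelled shARID1A and by -5.16 ± 0.29 (adjusted p = 3.08e-14) between those labelled shARID1A/B. HTR3B gave 3.42 and -4.06, GABRP 2.71 and -2.82, and GABRA3 1.76 and -2.45 in the same order, all called. Without shARID1A.4 replicate 2 the first GABRA3 difference was not called (0.99, adjusted p = 0.125). GABRA4 had the opposite signs, with -1.45 and 1.85. For these genes a mean over a label joins unlike conditions.

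Means over the 6 libraries of a label were compared directly. Standard errors and adjusted p-values of all label comparisons rest on the spread between libraries of a condition. They leave out the spread between the 2 conditions of a label. Of 34 members, 30 differed between the labels shARID1A and shARID1B, 19 higher and 11 lower in shARID1A (all rows 34.4% and 32.6%). Between shARID1A and shARID1A/B 22 differed, 11 in each direction (58.9% of all rows, 30.2% higher and 28.7% lower), and between shARID1B and shARID1A/B 23 differed, 10 higher and 13 lower in shARID1B (all rows 34.9% and 34.9%). Without the same 4 genes 27, 21 and 20 of 30 differed. Apart from the genes above, CHRNB2 (0.97 ± 0.03, adjusted p = 6.57e-18) and CHRNB4 (1.02 ± 0.04, adjusted p = 6.43e-17) were higher in shARID1A than in shARID1B. However, the CHRNB2 mean in shARID1A.4 (2520) lay below that in shARID1B.2 (3010), and that in shARID1B.3 was 1025. GRIN1 was higher in shARID1A than in shARID1B (0.85 ± 0.09, adjusted p = 4.77e-09) and shARID1A/B (0.62 ± 0.09, adjusted p = 1.35e-06), although its mean in shARID1A.2 (177) lay below that in shARID1A/B.2.3 (193). GRIA3 was lower in shARID1A than in shARID1B (-0.78 ± 0.09, adjusted p = 6.45e-08), and GRIK3 was lower in shARID1A than in shARID1A/B (-1.02 ± 0.16, adjusted p = 7.79e-06).

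Genes that work with these receptors were counted from 6 lists in the comparisons with Control, as the lowest and highest counts over the 6 conditions. Over the same conditions 31.3% to 37.6% of all rows rose and 31.9% to 38.1% fell. The extreme counts of the 2 directions need not come from the same condition. Of 18 partners of inhibitory receptors, such as gephyrin and its binding proteins, 3 to 11 rose and 4 to 11 fell, and the list's median difference was -0.17 to 0.20. Of 35 auxiliary and scaffold genes of glutamate receptors, 11 to 17 rose and 7 to 16 fell (median -0.02 to 0.24). NPTX1 and NPTX2 encode pentraxins that cluster AMPA receptors. NPTX1 had a mean of 37.1 in Control and 2576 in shARID1A.4, with differences of 1.62, 6.09, -0.38, 3.61, 3.58 and 0.89 in the order of the labels above, and was called in all 6. Its call in shARID1B.2 was lost in edgeR (-0.39, adjusted p = 0.0908). NPTX2 had a mean of 982 in Control and 173 in shARID1A.2, with -2.49, -2.16, -1.71, -1.22, -1.66 and -0.34, and fell in all 6, although the call in shARID1A/B.4.2 was lost with scaling to total reads (-0.15, adjusted p = 0.101). CNIH3, an auxiliary AMPA receptor subunit, also fell in all 6, with differences of -1.64 to -0.56, and SHANK3, a postsynaptic scaffold, rose in all 6, by 0.20 to 1.262. SHANK3 was not called in shARID1B.3 without shARID1B.3 replicate 1 (0.16, adjusted p = 0.0545).

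Of 10 partners of nicotinic receptors, 1 to 4 rose and 2 to 7 fell (median -0.89 to 0.07). For this and the next lists the shares of all rows were again 31.3% to 37.6% higher and 31.9% to 38.1% lower. MUSK, the kinase that clusters the muscle receptor, had a mean of 3.22 in Control and 2.83 in shARID1B.2. Its mean was 22.6 in shARID1A.2 (difference 2.59) and 21.2 in shARID1A/B.4.2 (2.47). Of 23 genes for the synthesis, transport and breakdown of the transmitters, 8 to 11 rose and 3 to 8 fell (median 0.06 to 0.33). SLC6A9, the glycine transporter GlyT1, rose in all 6, most in shARID1A.4 (3.16) and shARID1A/B.2.3 (2.98). SLC17A7, a vesicular glutamate transporter, and GLS2, a glutaminase, had means of 1.46 and 4.67 in Control and 29.2 and 43.9 in shARID1A.4, where they were highest. MUSK, SLC17A7 and GLS2 had Control means under 5 and passed the minimum through their high conditions. Their values are therefore a description without a test, although the counts of their lists include them. The difference of GLS2 in shARID1A/B.2.3 was 1.15, and 0.81 without Control replicate 1. That of SLC17A7 in shARID1B.2 was 0.82, and 1.76 without shARID1B.2 replicate 1. In shARID1A/B.4.2 SLC17A7 gave 1.24, and 1.78 without Control replicate 2 or 1.63 without shARID1A/B.4.2 replicate 1. Of 18 G-protein coupled receptors of the same transmitters, 4 to 8 rose and 4 to 8 fell (median -0.24 to 0.46). HTR2B fell in all 6, from a mean of 210.3 in Control to 40.6 in shARID1A/B.4.2 (-2.35) and 157 in shARID1B.3 (-0.44), where the call was lost without Control replicate 1 (-0.40, adjusted p = 0.062) or shARID1B.3 replicate 1 (-0.24, adjusted p = 0.181), and HTR7 fell in 4, to 2.84 in shARID1B.3 from 16.9 in Control (-2.25). In shARID1A/B.2.3 HTR7 had a mean of 27.9 and a difference of 0.70 that was not called in limma (adjusted p = 0.148), whereas edgeR called it higher (0.74, adjusted p = 0.0398), as did a pseudocount of 5 (0.59, adjusted p = 0.0395) and the fit of only the libraries compared (0.70, adjusted p = 0.0194). Of 9 other ligand-gated channel genes, 2 to 7 rose and 1 to 4 fell (median -0.16 to 0.86), and P2RX6, a purinergic subunit, rose in all 6, by 0.38 to 1.54.

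The 30 matching rows under the mean of 5 were not tested. Of these, 5 were at 0 in every library (GRIK1, GLRA1, GLRA2, CHRNB3 and HTR3E), and 23 in all had means under 1, among them the GABA-A genes GABRA2, GABRA6, GABRB2, GABRD, GABRG1 and GABRR1, the AMPA gene GRIA1 and the muscle nicotinic genes CHRNA1, CHRND and CHRNG. The values closest to the limit were 4.52 for CHRNA9 and 1.69 for GABRE on the outside, followed by GRIN2C, CHRNA2, GLRA3, CHRNE and CHRNA6 at 1.55 to 1.19, and 5.65 for GABRR3 and 5.84 for GRID2IP on the inside.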

How the data were processed

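RNA-Seq was done on 21 libraries of SK-N-BE(2) cells, 3 for each of 7 conditions, prepared from poly(A) RNA with a strand-marking kit 72 h after transduction. The deposited values are a signal that the authors made by dividing the reads per gene by 1 size factor per library. The submitters' processing notes name STAR 2.5.3a, RSEM 1.3.0, DESeq2 1.26.0 and GRCh38. Whole reads were recovered from the values (100% of low values within 0.1 of a whole read), and libraries held 27954334 to 41077638 reads. The authors' 3 tables of fold changes and p-values were not used.

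Rows with a mean of 5 or more over all libraries (18615 of 60728) were fitted in limma 3.58.1 (R 4.3.3) as log2(value + 1), with 1 mean per condition, 14 residual degrees of freedom and a trend, and p-values were adjusted over all rows by Benjamini-Hochberg. Contrasts were each condition against Control, the conditions of a label against each other and the label means. edgeR 4.0.16 and DESeq2 1.42.0 on recovered reads were alternatives, with other pseudocounts, filters, scalings, a replicate block and libraries left out. The fits were tested on simulated data. Replicates differed by more than sampling noise in all 21 pairs (chi-square per degree of freedom 1.55 to 4.07) and were kept as separate libraries.

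The members and lists were chosen with earlier results of these data known. Values in every library are given for GABRB1, for members called with a log2 difference of 1 or more in a comparison with Control, and for the 5 with the highest Control level per kilobase of exon. The values of some genes, 1 member among them, are not reported here, but all counts include them. From each list up to 4 genes are named that were called at that size in 1 direction in at least 4 of 6 comparisons. Positions and exon lengths come from the deposited table and GENCODE 29. Intervals of read ratios are exact conditional 95% intervals with size factors as exposure and, like all counting intervals, cover counting error only.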

Additional observations from a re-analysis of the deposited data

Results flagged for a closer look

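Differences between the 2 conditions of 1 label were singled out where the direct contrast in limma had an adjusted p under 0.05 and a size of 1 or more on the log2 scale, which held for 29 of the contrasts of 34 members. At this threshold 23.4%, 13.5% and 21.8% of all rows were called in the comparisons below, in their order. Without the 4 genes that passed the minimum through high conditions the counts were 7, 8 and 8 of 30. Differences are given as the condition named first minus the other. Between shARID1A.2 and shARID1A.4 there were 7. HTR3A (5.08), HTR3B (3.42), GABRP (2.71), GABRA3 (1.76), GRIN3A (1.53) and GABRQ (1.16) were higher in shARID1A.2, and GABRA4 (-1.45) was lower. The GABRA3 difference was no longer called without shARID1A.4 replicate 2 (0.99, adjusted p = 0.125).

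Between shARID1B.2 and shARID1B.3 there were 12. HTR3A (2.41), GRID2IP (2.25), CHRNA4 (2.08), GRIK4 (1.58), CHRNB2 (1.56), GRIN2A (1.36), GABRP (1.14), GABRA5 (1.09), CHRNB4 (1.06), GRIN3A (1.05) and CHRNB1 (1.04) were higher in shARID1B.2, and GABRR3 (-3.03) was lower. CHRNA4, GRIN2A, GRID2IP and GABRR3 passed the minimum through their high conditions, so their differences here and below are a description. The GRIN2A difference (1.55 in DESeq2) lost its flag there and without shARID1B.2 replicate 2, shARID1B.2 replicate 3, shARID1B.3 replicate 2 or shARID1B.3 replicate 3.

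Between shARID1A/B.2.3 and shARID1A/B.4.2 there were 10. GABRA4 (1.85), CHRNA4 (1.71), GRIN2A (1.59), GRIN2D (1.40), CHRNA3 (1.23) and CHRNA10 (1.23) were higher in shARID1A/B.2.3, and HTR3A (-5.16), HTR3B (-4.06), GABRP (-2.82) and GABRA3 (-2.45) were lower. Each condition has 3 libraries, so no single library was tested for standing apart from its group.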

How the results depend on the processing

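The number of members called kept within 1.5 times the value reported for all 12 comparisons under every alternative run: edgeR and DESeq2 on recovered reads, pseudocounts of 0.5 and 5, 2 other filters, 2 other scalings, the replicate block, fits of only the libraries compared, every single library left out and, chosen after seeing the data, the 4 members left out that passed the minimum through high conditions. Leaving out 1 library gave 22 to 25 members in shARID1A.2, 24 to 26 in shARID1A.4, 20 to 21 in shARID1B.2, 18 to 23 in shARID1B.3, 23 to 26 in shARID1A/B.2.3 and 19 to 21 in shARID1A/B.4.2 against Control, and 19 to 30 in the comparisons between conditions or labels. In shARID1B.3 the count was 17 in DESeq2 and 20 in edgeR against 23 in limma. edgeR called 59.2% to 75.9% and DESeq2 54.7% to 72.2% of all rows over the 12 comparisons. In shARID1B.3 against Control these shares were 58.7% in DESeq2, 63.8% in edgeR and 63.7% in limma. Single differences turned direction with scaling to total reads in 3 cases, where the library scaling moved all rows by more than the difference: CHRNA5 in shARID1A/B.4.2 against Control (0.119), CHRNA5 in shARID1A/B.2.3 against shARID1A/B.4.2 (-0.0389) and GRID1 in shARID1A.2 against shARID1A.4 (0.0119). Of the differences of single genes, 84 calls were lost and 42 gained over the settings that kept all libraries, with 4603 unchanged, and 142 were lost and 40 gained on leaving out 1 library, with 3272 unchanged. The replicate numbers did not pair the libraries, since the 18 correlations of same-numbered libraries lay between -0.06 and 0.05. With the replicate block 20 to 26 members were called against Control, as many as without it in each condition. Low members limit the precision: GRIN2A, CHRNA4 and GABRR3 had Control means under 5, and the intervals given for GRIN2A cover counting error only.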
